A study of Mus musculus with 8 samples.

Results

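The genes described here encode the proteasome, the chambered protease that degrades ubiquitin-tagged proteins, together with its assembly factors, activators and inhibitor. They were taken by symbol: protein-coding mouse genes named Psma, Psmb, Psmc, Psmd, Psme, Psmf or Psmg followed by a number, leaving out the inducible catalytic subunits Psmb8, Psmb9 and Psmb10. The rule found 47 genes among the 39017 gene identifiers of the count table, and 46 of them passed the expression filter that left 18952 genes for testing. It used no measured value. Of the 47, 14 encode the core particle and 17 the regulatory particle, and these are the particles compared below. The other members are 3 assembly chaperones of the regulatory particle (Psmd5, Psmd9 and Psmd10), 4 of the core (Psmg1 to Psmg4), 5 alternative activators (Psme1, Psme2, Psme2b, Psme3 and Psme4), the inhibitor Psmf1, the tissue-restricted core paralogs Psma8 (testis) and Psmb11 (thymus), and Psmc3ip, which is named for its binding to Psmc3 and is no subunit.

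Cells were fibroblasts cultured from E13.5 mouse embryos, sequenced as control cells and as Mettl3-knockout cells, each as total RNA without stress and as a stress granule-enriched fraction after 500 µM sodium arsenite for 30 min. Mettl3 is the catalytic subunit of the enzyme that places N6-methyladenosine on mRNA. Per the labels' protocols the knockout was induced with 4-hydroxytamoxifen (500 nM, 48 h), which switches on a Cre recombinase, and cells were collected the day after a check of Mettl3 loss at 7 days. Whether control cells also received the drug, and what drives the recombinase, is not stated in the labels. All RNA was selected on oligo(dT). Genotype and fraction give 4 groups of 2 replicates each (control or knockout, total or granule), described as biological without saying whether they came from separate embryos or cultures, so p-values measure only the spread between these samples. Arsenite and granule enrichment always went together, so their parts in a difference between granule and total libraries cannot be told apart. In bulk RNA, fewer cells of a type and less RNA per cell cannot be told apart either.

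In the proteasome, a barrel of stacked rings does the cutting. The outer alpha rings gate the entrance, and the inner beta rings hold the catalytic sites, in Psmb5, Psmb6 and Psmb7. The regulatory particle caps the barrel: its base, with a ring of ATPases (Psmc1 to Psmc6), unfolds substrates and feeds them in, and its lid removes ubiquitin. Subunits are needed in fixed proportions, and their genes are known to be induced together when proteasome activity falls short. Cells under arsenite accumulate damaged proteins that this machine clears.

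Total counts ranged from 67257220 to 123508539 per library. The members took 0.843% and 0.795% of the counts of the control total libraries, 0.747% and 0.794% of control granule, 0.564% and 0.701% of knockout total, and 0.650% and 0.655% of knockout granule libraries. Their Wilson 95% intervals are at most 0.00218 percentage points wide on either side and cover counting error only. All 4 knockout libraries lay below all 4 control libraries in this share. Mitochondrial genes took 0.590% to 0.881% of counts in the control libraries and 7.60%, 0.807%, 6.16% and 8.81% in the 4 knockout libraries (total 1 and 2, then granule 1 and 2), and the part of this in the members' share was not tested. In edgeR's quasi-likelihood test Mettl3 itself differed between knockout and control by a log2 fold change of -1.91 in total RNA (standard error, SE, 0.27, adjusted p = 0.035) and -1.38 in the granule fraction (SE 0.26, adjusted p = 0.021). All 10 fibroblast markers examined reached 1 CPM (read counts normalised per library for its size and composition) in every library, with a summed level of 6049 to 8980 CPM. Epithelial markers (2 to 4 of 5 at 1 CPM, nearly all of it Krt18) and neural markers (3 of 4, mostly Nes) moved with the groups. Summed epithelial levels were 204 to 336 CPM in control total, 677 to 713 in control granule, 49.2 to 89.5 in knockout total and 527 to 664 in knockout granule libraries. Summed neural levels were 305 to 328, 607 to 682, 202 to 272 and 368 to 388 CPM in the same order. Within the lists single genes differed. Krt8 was higher in granule than in total libraries, as Krt18 was, at 0.36 to 2.5 CPM in total and 3.94 to 4.67 CPM in granule libraries. The neural marker Tubb3 went against Nes in control cells, at 39.4 and 29 CPM in total and 4 and 4.54 CPM in granule libraries. Sox2 of the neural and Cldn6 of the epithelial list were near 0 throughout, and the part of these levels in the results was not tested. Endothelial, blood and macrophage, erythroid, skeletal muscle and hepatocyte markers summed to at most 71.4 CPM in any library.

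The knockout total replicates differed from each other more than those of any other group. Over the 46 tested members, replicates differed by a median absolute log2 ratio of 0.529 in knockout total, against 0.266 in control total, 0.131 in control granule and 0.0821 in knockout granule libraries. In knockout total 14 members differed more than 2-fold between the replicates. Psmb5 was the most extreme, at 8.41 and 110.1 CPM. One model shares its estimate of spread over all groups, and a group with 1 library adds nothing to it. Calls in comparisons that do not use knockout total are therefore also given without its replicate 1. Leaving out replicate 2 instead gives a closely related fit there and is no separate check. Comparisons that use the group then rest on 1 of its libraries. Counts of calls from such fits, where given, show only how far the calls depend on single libraries. They are no result about the members. With 2 replicates neither can be named the odd one, and limma's voom weighted them 0.152 and 0.163.

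**Figure D1:**
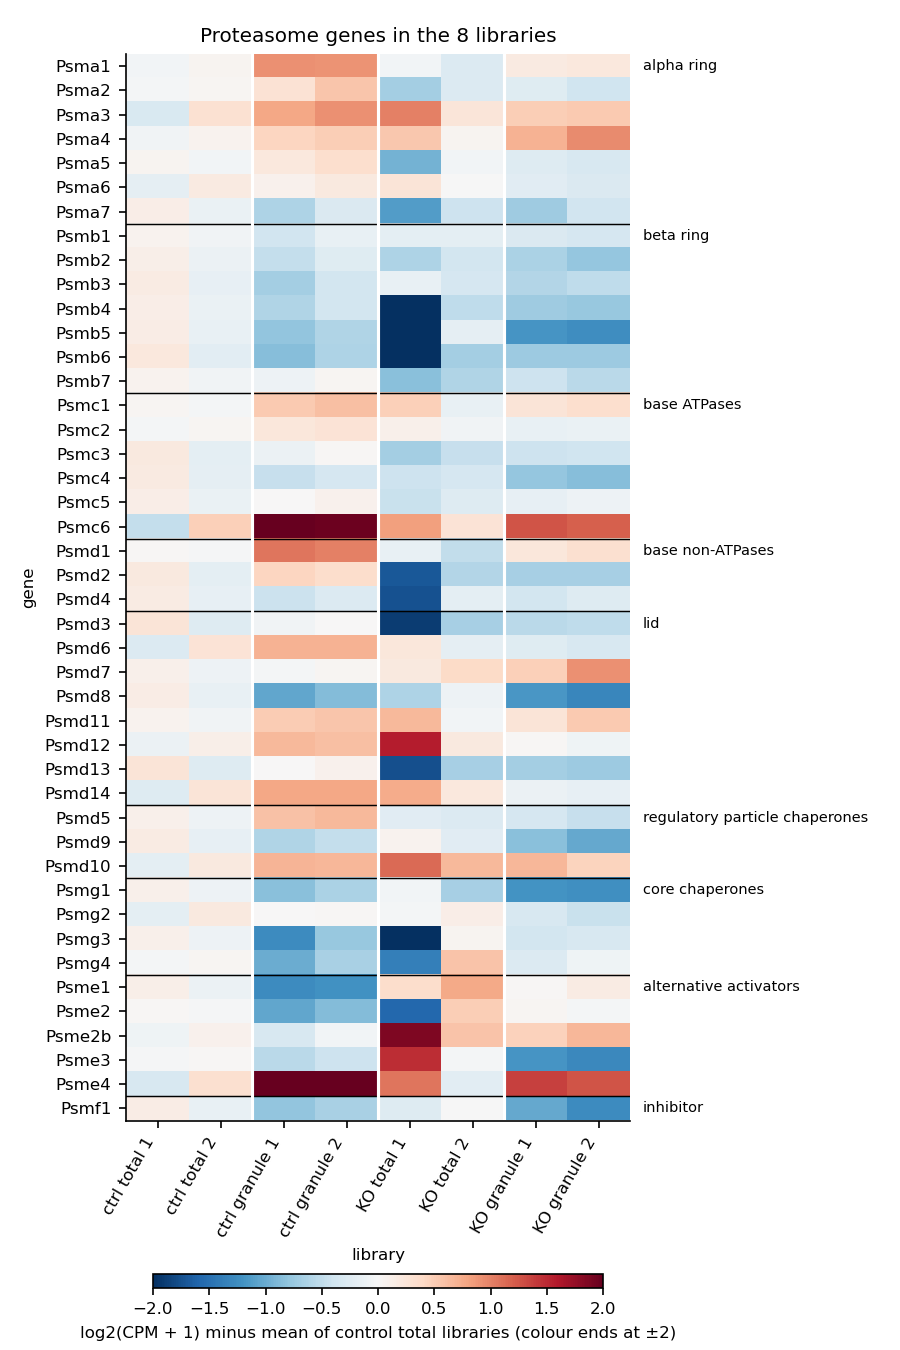
Heat map of 44 proteasome genes (rows, grouped by role) in the 8 libraries (columns); colour is log2(CPM + 1) minus the mean of the 2 control total libraries, from -2 (blue) to 2 (red). Psmc6 and Psme4 are deep red in both control granule libraries, and knockout total replicate 1 differs from replicate 2 in most rows.

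The first question was which proteasome mRNAs stood higher or lower in granule-enriched than in total RNA of control cells. In the regulatory particle Psmc6, with the highest value of both particles, and Psmd1 rose. In the core, Psma1 of the alpha ring rose, while the 7 beta ring genes all had negative values and none of them passed the test. Of these 7, edgeR also had 0 at an unadjusted p under 0.05 (30.0% of all genes), DESeq2 called 0 (21.5% of all genes), and limma's voom with library weights called Psmb3 and Psmb6 (39.1% of all genes). Outside the particles the activator Psme4 rose and the activator Psme1 fell. In edgeR's quasi-likelihood test with Benjamini-Hochberg adjustment over 18952 genes, 5 of 46 members were called (adjusted p under 0.05), where 10.1% of all genes tested were called. Of these, 4 were higher (5.89% of all genes) and 1 was lower (4.17%). The members' share is close to that background. Groups did not overlap for 17 members higher and 18 lower in the granule libraries, against 35.2% and 37.3% of all genes. Without knockout total replicate 1, 27 members were called (14 higher, 13 lower) against 42.9% of all genes. Among them were 4 beta ring genes, lower (Psmb3, Psmb4, Psmb5 and Psmb6), 4 alpha ring genes, higher (Psma1 to Psma4), and 8 genes of the regulatory particle, 7 of them higher. The count was also 27 without knockout total replicate 2, against 42.5% of all genes, and 0 when any single library of the other 3 groups was left out.

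The base of the regulatory particle held both of its called genes. Psmc6 (ENSMUSG00000021832, GRCm38 chromosome 14, 45329788 to 45349705), an ATPase of the ring, stood at 17.1 and 33.8 CPM in control total and 103 and 96.9 CPM in control granule libraries. Both granule libraries lay above both total libraries (log2 fold change 1.97, SE 0.38, adjusted p = 0.0221). Its total libraries differed more from each other than those of any other member in that group, with a log2 ratio of replicate 1 to replicate 2 of -0.98. Psmd1 (ENSMUSG00000026229, GRCm38 chromosome 1, 86064387 to 86139151), a scaffold of the base, stood at 113 and 110.2 CPM in total and 235 and 226 CPM in granule libraries (log2 fold change 1.05, SE 0.24, adjusted p = 0.0363). Of its exonic bases, 7.61% are shared with exons of neighbouring genes. Psmd2, the other large scaffold of the base, which docks shuttle factors, was the highest member in CPM in control libraries. It stood at 855 and 652 in total and 1005 and 956 in granule libraries. That difference did not pass the test (log2 fold change 0.38, SE 0.37, adjusted p = 0.524). Psmc2, an ATPase, gave 296 and 314 CPM and 357 and 367 CPM (log2 fold change 0.25, SE 0.23, adjusted p = 0.495).

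In the lid edgeR called 0 of the 8 genes, and 3 of them had an unadjusted p under 0.05, as had 30.0% of all genes. DESeq2 called 1, Psmd8, where it called 21.5% of all genes. Voom with library weights called 5, where it called 39.1% of all genes (Psmd6, Psmd8, Psmd11, Psmd12 and Psmd14). Without knockout total replicate 1 edgeR called 5 of the 8, against 42.9% of all genes. Psmd14, the deubiquitinase that removes ubiquitin chains before degradation, stood at 71.2 and 101 CPM in control total and 146 and 146 CPM in control granule libraries (log2 fold change 0.76, SE 0.29, adjusted p = 0.125). Psmd11, a structural lid subunit, gave 165 and 149.6 CPM and 225 and 230.4 CPM (log2 fold change 0.53, SE 0.29, adjusted p = 0.263). In both genes the groups did not overlap and the difference missed the threshold. The lowest value of the regulatory particle was that of Psmd8, a lid subunit, at 466 and 377 CPM in total and 203 and 229 CPM in granule libraries (log2 fold change -0.96, SE 0.28, adjusted p = 0.061).

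By their medians, the 2 rings of the core lay on opposite sides of 0. Psma1 (ENSMUSG00000030751, GRCm38 chromosome 7, 114264606 to 114276118), an alpha ring subunit, stood at 59.6 and 64.1 CPM in control total and 117 and 116 CPM in control granule libraries (log2 fold change 0.91, SE 0.24, adjusted p = 0.0478). Psma3, another alpha ring subunit, gave 100.0 and 154 CPM and 213 and 234 CPM (log2 fold change 0.82, SE 0.33, adjusted p = 0.146). Of the 7 alpha ring genes, 6 had positive values, and the granule libraries of 5 lay above both total libraries. Over all 18952 genes tested, 8974 had positive and 9959 negative values, and 35.2% had granule libraries above both total libraries. The catalytic subunits followed the other beta genes. Psmb5, the chymotrypsin-like site, stood at 137 and 112 CPM in total and 71.2 and 81.6 CPM in granule libraries (log2 fold change -0.71, SE 0.87, adjusted p = 0.619). Psmb6, the caspase-like site, had the lowest value of the core, with 326 and 241 CPM and 155 and 182 CPM (log2 fold change -0.75, SE 0.44, adjusted p = 0.287). For Psmb7, the trypsin-like site, the groups overlapped at 279.8 and 255 CPM and 249 and 273 CPM. In the other 6 beta ring genes both granule libraries lay below both total libraries, as they did for 37.3% of all genes tested.

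By ring, the median log2 fold change of granule against total was 0.43 in the alpha ring and -0.48 in the beta ring. By particle it was -0.15 in the core and 0.25 in the regulatory particle, beside -0.02 over all 46 members and -0.06 over all genes tested. The core lay below the regulatory particle by 0.40 on the log2 scale (SD 0.114 over the 4 pairings of single libraries, range of the difference -0.54 to -0.29). Within single libraries the same balance can be read as the mean log2 CPM of core genes minus that of regulatory particle genes. It was -0.07 and -0.06 in control total, -0.48 and -0.34 in control granule, -0.59 and -0.14 in knockout total, and -0.23 and -0.26 in knockout granule libraries. Both control granule libraries were thus lower than both control total libraries, and the knockout total replicates lay farther apart than any other pair. The mean of the alpha ring minus that of the beta ring was -1.10 and -0.71 in control total, -0.05 and -0.13 in control granule, 0.40 and -0.60 in knockout total, and -0.26 and -0.16 in knockout granule libraries.

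**Figure D2:**
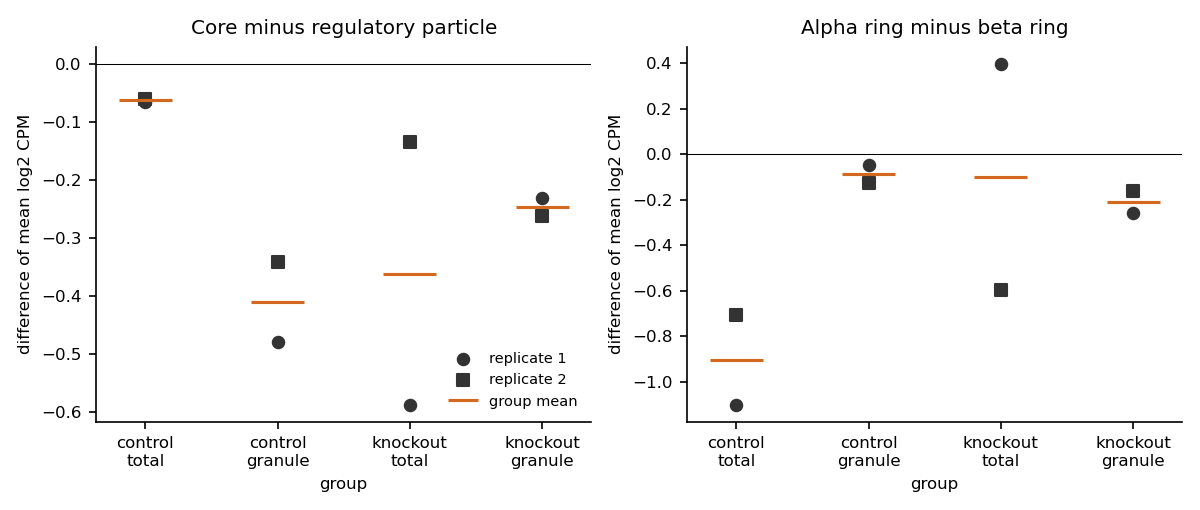
Balance of the particles in each library: mean log2 CPM of 14 core genes minus that of 17 regulatory particle genes (left) and of 7 alpha ring genes minus 7 beta ring genes (right), by group; circles are replicate 1, squares replicate 2, bars the group mean. Control granule libraries lie at -0.48 and -0.34 on the left, below control total at -0.07 and -0.06, and the 2 knockout total libraries lie far apart in both panels.

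Base composition moved with these differences. Across the 46 members, the log2 fold change of granule against total in control cells had a Spearman correlation of -0.788 with the GC content of the longest coding transcript, -0.952 within the 14 core genes and -0.900 within the 17 regulatory particle genes. Over 15380 protein-coding genes tested it was -0.420. These points share the same 4 libraries, and genes are not independent replicates. Beta ring transcripts had a median GC content of 52.2%, alpha ring transcripts 45.0% and regulatory particle transcripts 49.7%, against 50.5% over all protein-coding genes tested. Psmc6 had the lowest GC content of the members, at 37.0%. The log2 ratio of replicate 1 to replicate 2 within control total also followed GC across the members (Spearman correlation 0.772). The same correlation was -0.646 within knockout total, -0.519 within control granule and -0.266 within knockout granule libraries. When a trend with GC content was removed from each library, the median of the alpha ring exceeded that of the beta ring by 0.26 in place of 0.91. The regulatory particle median was then 0.50, with 16 of 17 values positive, and the core median -0.03, while the median of all genes moved from -0.06 to 0.17. With a trend with transcript length removed instead, the core median was 0.06, and the regulatory particle stayed above it at 0.37. With the GC trend removed, 5 members were again called, against 21.7% of all genes, and 4 of them were the same genes: Psma1 was no longer called (log2 fold change 0.60) and Psmd6 was, while Psmc6 (1.15), Psmd1, Psme1 (-0.75) and Psme4 (1.84) stayed past the threshold. Whether GC content had a part in the ring difference beyond this comparison was not tested.

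**Figure D3:**
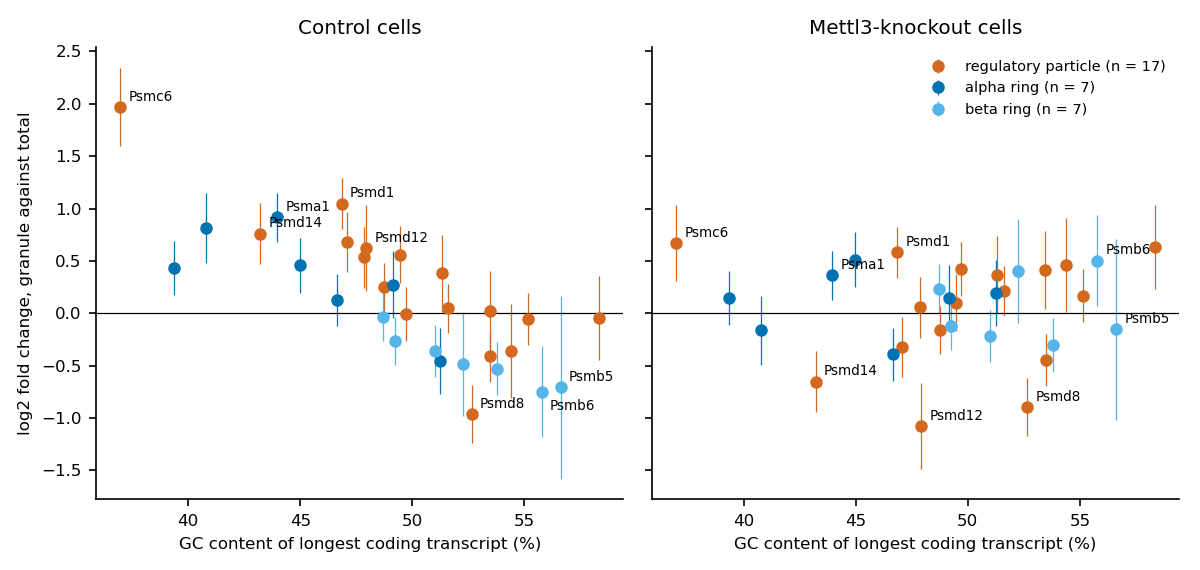
Log2 fold change of granule against total libraries (y axis, bars are 1 SE of the fit) by GC content of the longest coding transcript (x axis, %), for regulatory particle, alpha ring and beta ring genes, in control cells (left) and knockout cells (right). In control cells the values fall from Psmc6 at 1.97 to Psmd8 at -0.96 as GC rises, with a Spearman correlation of -0.952 in the core, and in knockout cells the correlation in the core is -0.037.

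Alternative activators open the core in place of the regulatory particle. In control granule against total libraries, the highest and the lowest log2 fold change of all members were theirs. Over the 5 activators the median was -0.48, with 1 positive value. Psme4 (ENSMUSG00000040850, GRCm38 chromosome 11, 30771726 to 30880361), a large single-chain activator, stood at 34.4 and 53.9 CPM in control total and 204 and 181 CPM in control granule libraries (log2 fold change 2.12, SE 0.44, adjusted p = 0.0276). Psme1 (ENSMUSG00000022216, GRCm38 chromosome 14, 55578123 to 55581529), which forms a ring with Psme2 and is known to be induced by interferon gamma, went the other way. It stood at 104 and 87.8 CPM in total and 39.6 and 40.8 CPM in granule libraries (log2 fold change -1.26, SE 0.26, adjusted p = 0.0264). Its partner Psme2 gave 70.3 and 67.6 CPM and 33.1 and 37.4 CPM. Both genes of the ring thus had lower granule than total libraries, and that of Psme2 did not pass the test (log2 fold change -0.97, SE 0.56, adjusted p = 0.286). Psme2b is a near copy of Psme2, so how reads were divided between them is uncertain. Psme1 and Psme2 lie 5911 bases apart on chromosome 14.

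The start-site windows of Psme4 and Psmc6, the highest called values in this comparison, and of Psme1, the lower call, are shown to set their promoters beside their change. They run from 250 bases before to 50 bases after the RefSeq start site in GRCm38.p6, all on the plus strand. Capitals mark the match to a motif searched on both strands: GAAA followed by any 2 bases and GAAA, the core of the interferon-stimulated response element, in Psme1, and TGACNNNGC, the core of the antioxidant response element through which the factors Nfe2l1 and Nfe2l2 act, in Psmc6 and Psme4. All 3 matches read on the minus strand, so the capitals show the reverse complement.
Psme1, chr14:55578244-55578543: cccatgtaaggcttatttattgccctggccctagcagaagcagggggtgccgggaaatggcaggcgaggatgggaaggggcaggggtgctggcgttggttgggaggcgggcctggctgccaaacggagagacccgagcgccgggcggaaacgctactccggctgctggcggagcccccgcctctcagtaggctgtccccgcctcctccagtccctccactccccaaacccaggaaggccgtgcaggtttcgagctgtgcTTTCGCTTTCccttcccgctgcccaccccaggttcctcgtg
Psmc6, chr14:45329574-45329873: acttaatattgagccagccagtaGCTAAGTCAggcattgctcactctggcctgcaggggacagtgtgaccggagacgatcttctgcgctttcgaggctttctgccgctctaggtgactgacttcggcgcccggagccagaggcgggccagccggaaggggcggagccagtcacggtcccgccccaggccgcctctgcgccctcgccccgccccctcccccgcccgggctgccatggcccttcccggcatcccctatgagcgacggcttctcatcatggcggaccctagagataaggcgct
Psme4, chr11:30771525-30771824: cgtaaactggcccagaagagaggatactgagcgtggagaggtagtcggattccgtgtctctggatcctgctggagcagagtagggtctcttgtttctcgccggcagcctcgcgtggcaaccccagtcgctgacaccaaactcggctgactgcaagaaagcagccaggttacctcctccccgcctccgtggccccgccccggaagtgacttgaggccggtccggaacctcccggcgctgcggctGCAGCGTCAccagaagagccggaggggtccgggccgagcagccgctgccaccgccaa
The match in Psme1 starts 10 bases after the start site, that in Psmc6 at -227 and that in Psme4 at -7. Of the 47 members 39 have a window in the RefSeq table. The interferon motif occurs in 5 of them (12.8%: Psmb3, Psmd4, Psmd9, Psme1 and Psmg4), against 3.44% of 32851 windows of this length. The antioxidant motif occurs in 6 (15.4%: Psmb5, Psmb6, Psmc6, Psmd12, Psmd9 and Psme4), against 12.4%. The CCAAT box occurs in 14 (35.9%), against 37.4%. A match is a description of the letters and shows no binding.

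Assembly factors and the inhibitor gave no call in control cells by edgeR, with 4 of these 8 genes at an unadjusted p under 0.05, against 30.0% of all genes. DESeq2 called 1, Psmf1, against 21.5%, and voom with library weights called 7, all but Psmg2, against 39.1%. Without knockout total replicate 1 edgeR called 7 of the 8, against 42.9%. Psmg1, a chaperone of alpha ring assembly, stood at 95 and 83.3 CPM in control total and 49.5 and 56.9 CPM in control granule libraries (log2 fold change -0.74, SE 0.28, adjusted p = 0.124). Psmf1, which binds the core and blocks activators, gave 64.7 and 52.7 CPM and 33.3 and 37 CPM (log2 fold change -0.74, SE 0.26, adjusted p = 0.104). In both genes the granule libraries lay below the total libraries.

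The next comparison set Mettl3-knockout against control cells within the granule fraction. Most proteasome genes stood lower in knockout than in control granule libraries, and 36 of 46 had negative values, beside 8820 of all 18952 genes tested. The activator Psme1 rose and the chaperone Psmd5 fell. These were the 2 members called by edgeR's quasi-likelihood test, against 9.45% of all genes tested (5.79% higher, 3.66% lower). DESeq2 called 6 members, against 17.8% of all genes. Groups did not overlap for 31 members lower and 8 higher in the knockout, against 36.6% and 40.4% of all genes. Among the 15380 protein-coding genes tested, groups did not overlap for 6094 lower and 6075 higher. In the regulatory particle groups did not overlap for 14 of 17 genes lower and 1 higher, and in the core for 9 of 14 lower and 1 higher. The median log2 fold change was -0.38 over the members, -0.42 in the regulatory particle, -0.35 in the core, and 0.08 over all genes tested. Over the protein-coding genes tested it was 0.03. The member median lay below that of all genes by 0.46 on the log2 scale, and this difference ranged from -0.57 to -0.37 over 20 settings of the analysis. The core and the regulatory particle differed by 0.08 (SD 0.057 over the 4 pairings).

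Psme1 stood at 39.6 and 40.8 CPM in control granule and 97.1 and 108 CPM in knockout granule libraries (log2 fold change 1.35, SE 0.26, adjusted p = 0.0215). Both knockout libraries lay far above both control libraries. Its partner Psme2 gave 33.1 and 37.4 CPM and 70.7 and 67.3 CPM, which differed in the same direction without passing the test (log2 fold change 0.97, SE 0.56, adjusted p = 0.298). Psmd5 (ENSMUSG00000026869, GRCm38 chromosome 2, 34849734 to 34874968), an assembly chaperone of the base, stood at 91.3 and 94.6 CPM and 47.6 and 43.6 CPM (log2 fold change -1.03, SE 0.24, adjusted p = 0.0368). Again the 2 groups were well separated.

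Psmd2 had the lowest value of all members, below that of Psmd5. It stood at 1005 and 956 CPM in control granule and 472 and 469 CPM in knockout granule libraries (log2 fold change -1.06, SE 0.37, adjusted p = 0.114). Its replicates agreed closely within the granule groups, and the difference missed the threshold under the shared spread. Psmd6, a lid subunit, gave 85.1 and 85.3 CPM and 43.9 and 41.6 CPM, separate groups that also missed the threshold. Psmd14 gave 146 and 146 CPM and 78.7 and 75.5 CPM (log2 fold change -0.92, SE 0.29, adjusted p = 0.0859). When knockout total replicate 1, which is no part of this comparison, was left out, 24 members were called against 40.8% of all genes, 7 higher and 17 lower, with Psmd1, Psmd2, Psmd6 and Psmd14 among the lower ones. The count was 28 without knockout total replicate 2, against 41.1% of all genes, and 0 or 1 when any single library of the other 3 groups was left out. Voom with library weights called 32 members, against 55.0% of all genes. With the GC trend of each library removed, 12 members were called, against 27.0% of all genes, 11 of them lower: Psma1, Psmc4, Psmc6, Psmd1, Psmd2, Psmd3, Psmd5, Psmd6, Psmd13, Psmd14 and Psme4.

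Psmd7, a lid subunit that pairs with Psmd14, had the highest value of the regulatory particle, at 326 and 341 CPM in control granule and 464 and 631 CPM in knockout granule libraries (log2 fold change 0.72, SE 0.26, adjusted p = 0.121). The other positive value of that particle was that of Psmd4 (log2 fold change 0.04), whose groups overlapped. In the core Psma4, an alpha ring subunit, had the highest value, at 178 and 187 CPM and 216 and 257 CPM (log2 fold change 0.37, SE 0.26, adjusted p = 0.388). Psmd7 and Psma4 had knockout libraries above the control libraries, and neither of these genes passed the test. The lowest value of the core was that of Psma2, another alpha ring subunit, with 167 and 200.2 CPM and 115 and 104 CPM (log2 fold change -0.75, SE 0.26, adjusted p = 0.108). Among the catalytic subunits, Psmb5 gave 71.2 and 81.6 CPM and 54.3 and 52.1 CPM, and Psmb7 gave 249 and 273 CPM and 200.1 and 184 CPM, both with separate groups. Psmb6 did not separate, at 155 and 182 CPM and 169 and 168 CPM.

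**Figure D4:**
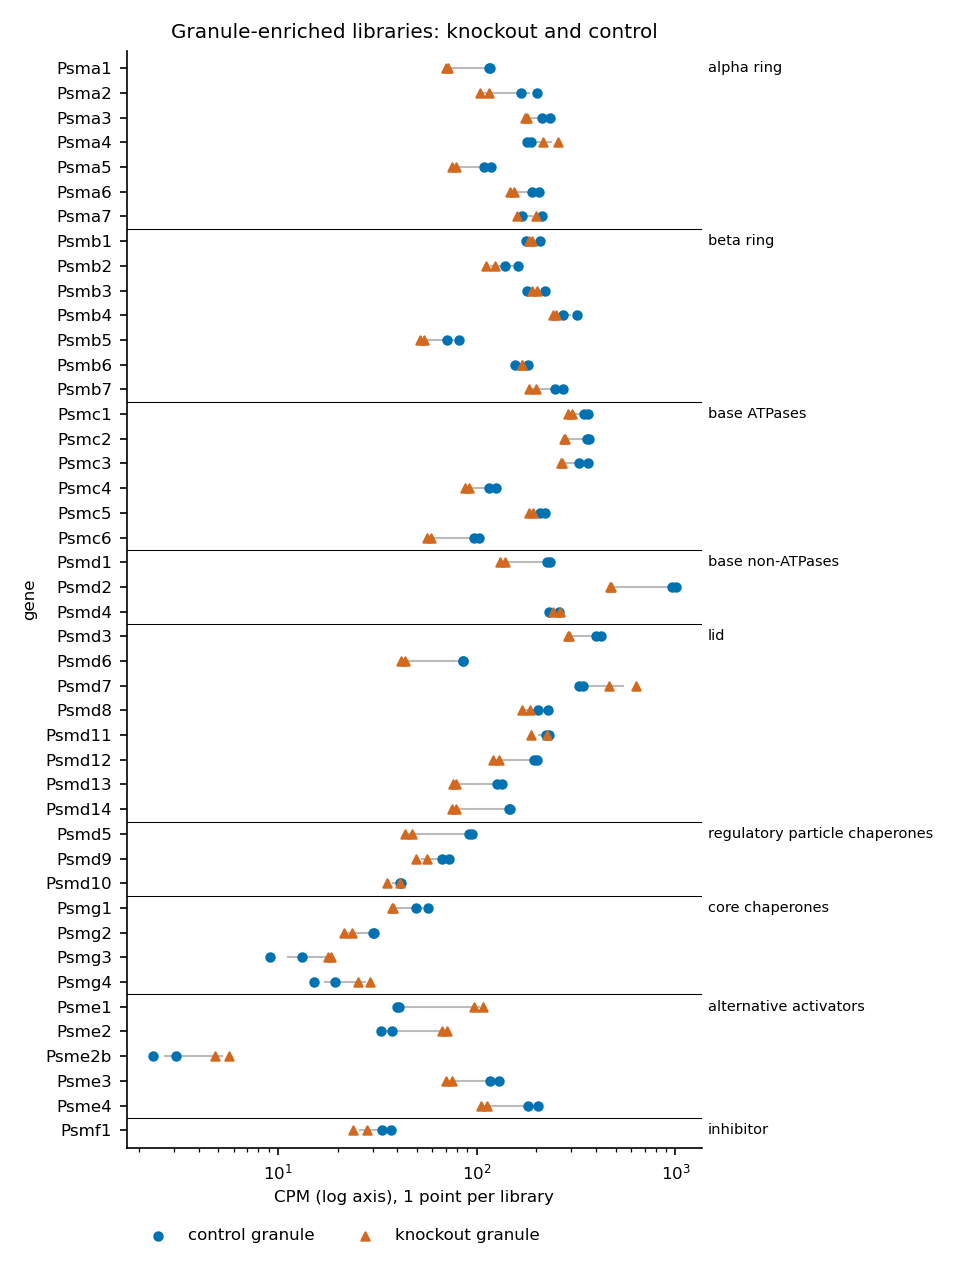
CPM of 44 proteasome genes (log axis, 1 point per library) in control granule (circles) and knockout granule libraries (triangles), grouped by role; grey lines join the group means. Triangles lie left of circles for most genes, including 14 of 17 regulatory particle genes, and right of them for 7, among them Psme1, Psme2 and Psmd7.

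Within knockout cells, granule and total libraries were compared in the same way. The gene of the proteasome activator Psme3 fell, as did that of the inhibitor Psmf1, and Psmb11 rose from near 0. These were the 3 members called by edgeR's quasi-likelihood test, against 17.6% of all genes tested (9.17% higher, 8.47% lower). Groups did not overlap for 11 members higher and 17 lower in the granule libraries, against 31.5% and 26.5% of all genes. In the particles edgeR called 0 genes, with 0 of 14 core and 3 of 17 regulatory particle genes at an unadjusted p under 0.05, against 34.3% of all genes. DESeq2 called Psmd8 and Psmd12 in the regulatory particle, against 26.9% of all genes. Voom with library weights called no gene of either particle, against 5.18% of all genes. Leaving out knockout total replicate 1 gave 13 members called against 36.2% of all genes, and without replicate 2 of that group 25, against 51.1%. Without replicate 1 the calls held 2 core genes (Psma4 and Psmb5) and 3 of the regulatory particle (Psmc6, Psmd1 and Psmd8). With either knockout granule library left out the count was 0. The median log2 fold change was 0.14 in the core and 0.17 in the regulatory particle, beside -0.01 over all members and 0.04 over all genes. The particle medians were -0.12 and -0.04 when knockout total replicate 1 was left out, so their sign rests on it.

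Psme3 (ENSMUSG00000078652, GRCm38 chromosome 11, 101316213 to 101323537), the nuclear activator, stood at 482 and 167 CPM in knockout total and 75.6 and 69.9 CPM in knockout granule libraries (log2 fold change -2.16, SE 0.46, adjusted p = 0.0194). Its total libraries lay far apart, and both were above the granule libraries. Without knockout total replicate 1 the log2 fold change was -1.20. Its adjusted p ranged from 2.34e-08 to 0.162 over 18 alternatives. Psmf1 (ENSMUSG00000032869, GRCm38 chromosome 2, 151715812 to 151744186) stood at 48.7 and 58.3 CPM and 28.1 and 24 CPM, with little spread in either group (log2 fold change -1.04, SE 0.26, adjusted p = 0.0324). Psmb11 (ENSMUSG00000072423, GRCm38 chromosome 14, 54621433 to 54629556), the catalytic subunit of the thymus, had 9 and 7 counts in the total and 67 and 58 counts in the granule libraries of the knockout, under 1 CPM in all (log2 fold change 2.94, SE 0.60, adjusted p = 0.0173). It lies 3410 bases from Psmb5 on chromosome 14. In control cells it had 6 and 12 counts in total and 10 and 30 in granule libraries.

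In the particles, the knockout ratios spread around 0. Psmc6 had the highest value of the regulatory particle, at 43.4 and 29.4 CPM in knockout total and 59 and 56.6 CPM in knockout granule libraries (log2 fold change 0.67, SE 0.36, adjusted p = 0.236). Psmd12, a lid subunit, had the lowest, at 381 and 147 CPM and 129 and 121 CPM (log2 fold change -1.08, SE 0.41, adjusted p = 0.108). Its value rests on knockout total replicate 1, without which it was -0.23. Psma4 had the highest value of the core (log2 fold change 0.51, SE 0.26, adjusted p = 0.209) and Psma6 the lowest (log2 fold change -0.39, SE 0.25, adjusted p = 0.307). Both were alpha ring genes, and neither passed the test. The correlation with GC content seen in control cells was near 0 here, with a Spearman correlation of 0.063 over the 46 members.

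In unstressed total RNA, no member passed the test between knockout and control. By edgeR's quasi-likelihood test 0 of 46 were called against 0.412% of all genes, and 10 members had an unadjusted p under 0.05, against 24.8%. DESeq2 called 2 (Psmd10 and Psme2b), against 13.2%, and voom with library weights called 0, against 0.164%. Groups did not overlap for 5 members higher and 19 lower in the knockout, against 24.4% and 24.7% of all genes. The median log2 fold change was -0.45 in the core and -0.31 in the regulatory particle, beside -0.20 over all members and 0.02 over all genes. All 7 beta ring genes had negative values, with a median of -0.71, against -0.17 in the alpha ring. The medians moved toward 0 when knockout total replicate 1 was left out: the core median was -0.28, the regulatory particle median -0.20, the beta ring median -0.38 and the alpha ring median -0.05. Without replicate 2 of that group they were -0.55, -0.04, -0.73 and 0.04 in the same order, so the medians depend on both libraries. With all libraries, the log2 fold changes fell as GC content rose, with a Spearman correlation of -0.591 over the 46 members. It was -0.714 in the core, -0.814 in the regulatory particle and -0.549 over all protein-coding genes. After removal of each library's GC trend, the medians were -0.75 in the beta ring and -0.44 in the alpha ring. They were -0.49 in the core and -0.03 in the regulatory particle, beside 0.14 over all genes. All beta ring genes but Psmb3 (0.24) stayed negative.

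Psmb6 had the lowest value of the core, at 326 and 241 CPM in control total and 64.3 and 174 CPM in knockout total libraries (log2 fold change -1.25, SE 0.44, adjusted p = 0.162). Psmb7 gave 279.8 and 255 CPM and 149.6 and 176 CPM (log2 fold change -0.71, SE 0.24, adjusted p = 0.153). In both catalytic genes the knockout libraries lay below the control libraries. Psmb5 did not separate as clearly, at 137 and 112 CPM and 8.41 and 110.1 CPM, with one knockout library just under the lower control. Psma3 had the highest value of the core (log2 fold change 0.64, SE 0.33, adjusted p = 0.26). In the regulatory particle Psmd3, a lid scaffold, had the lowest value (log2 fold change -1.19, SE 0.40, adjusted p = 0.157) and Psmd12 the highest (log2 fold change 1.04, SE 0.41, adjusted p = 0.18). Psmd2 gave 855 and 652 CPM and 229.8 and 499 CPM (log2 fold change -1.05, SE 0.37, adjusted p = 0.164). Psme1 stood at 104 and 87.8 CPM and 123 and 162 CPM (log2 fold change 0.57, SE 0.26, adjusted p = 0.211). With that replicate left out, Psme1 was the 1 member called (log2 fold change 0.75), against 5.59% of all genes. With replicate 2 of that group left out, 26 members were called, against 50.7% of all genes.

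An interaction term asked whether the 2 genotypes differed in their granule to total ratio. By edgeR's quasi-likelihood test 0 of 46 members were called against 0.517% of all genes. At an unadjusted p under 0.05 there were 7 members, against 25.8% of all genes. DESeq2 called 2 (Psmd12 and Psmd14), against 14.5%, and voom with library weights called 0, against 2.11%. With knockout total replicate 1 left out, the differences of these lid genes were -0.85 for Psmd12 and -1.12 for Psmd14. Psmd14 had a log2 granule to total ratio of 0.76 in control and -0.65 in knockout cells (log2 fold change -1.41, SE 0.41, adjusted p = 0.108). Psmd12 had 0.63 and -1.08, the lowest difference in the regulatory particle (log2 fold change -1.70, SE 0.58, adjusted p = 0.135). All 7 beta ring genes had positive differences, highest in Psmb6 (log2 fold change 1.25, SE 0.61, adjusted p = 0.235), and the core's lowest was Psma3 (log2 fold change -0.98, SE 0.47, adjusted p = 0.225). The differences followed GC content, with a Spearman correlation of 0.775 over the 46 members and 0.535 over all protein-coding genes tested. With the GC trend of each library removed, Psmb1, Psmb2, Psmb3 and Psmb5 were negative and Psmb4, Psmb6 and Psmb7 positive. The beta ring median was then -0.08 in place of 0.27, beside -0.34 over all genes. Psmd4, the ubiquitin receptor of the base, had the highest of the regulatory particle (log2 fold change 0.82, SE 0.64, adjusted p = 0.428). Psme4 had ratios of 2.12 and 0.76 (log2 fold change -1.36, SE 0.60, adjusted p = 0.199), and Psmc6 of 1.97 and 0.67 (log2 fold change -1.30, SE 0.51, adjusted p = 0.167). So for these genes the call in control cells and its absence in knockout cells is not a shown difference. The core minus regulatory particle difference was 0.18 (SD 0.103 over 16 combinations of pairings).

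The comparisons share libraries: both granule contrasts use the control granule or knockout granule libraries that also enter the contrasts between genotypes. Values of the same gene are therefore set side by side above and not counted as agreement.

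Other genes of the ubiquitin-proteasome route, from a list of 33 of which 32 were matched, are given by their calls. In control cells edgeR's quasi-likelihood test called 2 of 32 between granule and total, against 10.1% of all genes. Zfand5, a proteasome-binding zinc finger protein, rose (log2 fold change 1.58, SE 0.39, adjusted p = 0.045) and Psmb9, an inducible catalytic subunit, fell (log2 fold change -2.22, SE 0.37, adjusted p = 0.0154). In knockout cells 5 were called lower in granule than in total libraries, against 8.47% of all genes: Psmb9, Rad23b, Ubqln1, Ubqln4 and Uba1. Between genotypes in total RNA the count was 0 by edgeR, against 0.412% of all genes, and 7 had an unadjusted p under 0.05, against 24.8%. In the granule fraction 6 were called, against 9.45%. Psmb8 (log2 fold change 2.74, SE 0.63, adjusted p = 0.0362) and Psmb9 (log2 fold change 1.93, SE 0.37, adjusted p = 0.021), which replace Psmb5 and Psmb6 in the immunoproteasome, stood higher in the knockout as Psme1 did. The lower genes were the proteasome-bound ligase Ube3c (log2 fold change -1.68, SE 0.25, adjusted p = 0.0112), the shuttles Ubqln1 and Ubqln2, and the ubiquitin-activating enzyme Uba1 (log2 fold change -1.15, SE 0.27, adjusted p = 0.0382). The interaction gave 0 calls by edgeR, against 0.517% of all genes, and 10 had an unadjusted p under 0.05, against 25.8%. Without knockout total replicate 1 the list had 21 calls in control cells (42.9% of all genes) and 19 between genotypes in the granule fraction (40.8%). The median log2 fold change of the list was 0.34, -0.41, 0.23 and -0.39 in the 4 comparisons of groups and -0.54 in the interaction.

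Levels of different genes were compared per kilobase of the longest coding transcript. In control total libraries the core ranged from 44.6 ± 13.4 CPM per kb for Psma3 to 376 ± 60.5 for Psmb3 (mean ± SD, n = 2), with a median of 157. Psmb3, Psmb6 (355 ± 75.6) and Psmb4 (350.1 ± 47.1), the highest of the core, differed by less than their spread. The regulatory particle ranged from 11.4 ± 5.3 for Psmc6 to 254 ± 48.3 for Psmd2, with a median of 151. Subunit genes of 1 complex thus spanned 8.44-fold in the core and 22.3-fold in the regulatory particle in CPM per kb. The longest coding transcript need not be the one expressed, so ranks and spans depend on this choice. In the core its length ran from 766 to 2911 bases, with a median of 1162.5. In control granule libraries Psmc6 was still the lowest of the regulatory particle, at 44.7 ± 1.85, and the span of that particle was 7.41-fold. Psmd2 was still the highest there, at 331 ± 11.6, while in both knockout groups Psmd7 was, at 258 ± 23.3 in total and 346 ± 74.6 in granule libraries. The activators ranged from 3.85 ± 0.394 for Psme2b to 86.2 ± 10.3 for Psme1 in control total libraries. Psma8, the testis paralog, had 0 to 2 counts in the 8 libraries and was not tested.

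The longest coding transcripts of the tested members ranged from 555 to 6491 bases. The median length of the longest coding transcript was 1162.5 bases in the core and 1819 in the regulatory particle, against 3028.5 over all protein-coding genes tested. No tested member had an internal exon longer than 307 bases. The 5-base consensus of N6-methyladenosine, GGACT, occurred 0.94 times per kb in the core and 1.51 times in the regulatory particle (medians), against 1.06 over all protein-coding genes with a sequence. It was in all 17 regulatory particle transcripts and in 10 of the 14 core transcripts. No map of the modification was used here. The genes are spread over the genome, with 10 members on chromosome 11 and 6 each on chromosomes 2 and 14. Psmd9 and Psmc3ip had the largest overlap with exons of other genes, 25.5% and 21.2% of their exonic bases, and whether counting used strand is not given in the sources used here.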

How the data were processed

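Values are the raw counts per Ensembl gene identifier that the authors deposited, 1 column per library, not pooled. The submitters' processing notes name STAR, DESeq2 and the builds GRCm38 and mm10. The annotation release, the strand setting and the treatment of multi-mapped reads are not given in the sources used here. Of 39017 identifiers, 37607 matched GENCODE M21 (GRCm38), from which symbols, coordinates, lengths and GC content were taken. Unmatched identifiers held 0.178% to 0.255% of a library's counts.

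Counts were tested in R 4.3.3 with edgeR 4.0.16 (robust quasi-likelihood F-test, TMM scaling, low genes removed by filterByExpr). All 5 contrasts came from 1 model with 4 group means, with 4 residual degrees of freedom, and p-values were adjusted over 18952 genes by the Benjamini-Hochberg method. A gene is called at an adjusted p under 0.05, log2 CPM has a prior count of 2, and SEs were derived from the F statistic. The scripts were tested on simulated data. The members, their roles and the pathway and marker lists were chosen with earlier results of these data known. Members named with their values in each library are those called in any contrast, a preset list of catalytic, scaffold and activator genes, and the extremes of each particle per contrast. The values of Psmd6, and the names of other members in lists of calls, were chosen after their values were seen.

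Alternatives were DESeq2 1.42.0 size factors or its Wald test, library size alone, no filter beyond 1 count, limma 3.58.1 voom with a weight per library, subtraction of each library's trend with GC or with length (lowess, span 0.3), a replicate block, only the libraries compared, and leaving out each library. Leaving out both knockout total libraries and a crossed block were chosen after seeing the data. Exon overlap was computed with bedtools 2.31.1, and the start-site windows are from RefSeq (GRCm38.p6). A result of the pathway list is not reported here.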

Additional observations from a re-analysis of the deposited data

How the results depend on the processing

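Every tested member but Psmb11 had at least 203 counts in each library, so low depth limits Psmb11 above all. Leaving out each library in turn gave 0 to 27 members called in control granule against total, 0 to 25 in knockout granule against total, 0 to 26 between genotypes in total RNA, 0 to 28 between genotypes in granules, and 0 to 27 for the interaction. The cause was not tested.

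In the order control granule, knockout granule, total RNA, granule between genotypes and interaction (5, 3, 0, 2 and 0 members called), the counts that moved by over 1.5 times were as follows. DESeq2's Wald test called 7 in knockout granule, 2 in total RNA, 6 in granules between genotypes and 2 in the interaction. With the GC trend removed 11, 1, 12 and 3 were called in those 4. With the length trend removed 3 were called in control granule, 5 in knockout granule and 4 in granules between genotypes. Voom with library weights called 23, 1 and 32 in those 3. With no filter beyond 1 count 7, 9, 5 and 5 were called in the comparisons after the first. Using only the 4 libraries compared gave 22 in control granule, 0 in knockout granule and 35 in granules between genotypes. Without both knockout total libraries, chosen after seeing the data, 27 and 24 were called in the first and the granule comparison between genotypes. With library size alone 1 was called in the latter. Library size alone moved the median of all genes from -0.06 to -0.19 in control granule and from 0.09 to 0.28 in the interaction. Shares over all genes are given above for DESeq2 and voom. For GC removal they are given in control granule and in granules between genotypes. Other counts, here and with a replicate block below, stand without such a share and are no result about the members.

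The labels do not say whether the replicate numbers pair the samples. Same-numbered libraries had correlations of deviations between -0.254 and 0.0954, which with 2 libraries per group cannot show or exclude pairing. With the number as a replicate block 0, 2, 0, 0 and 0 members were called, and with the block and GC removal 10 in knockout granule, 12 in granules between genotypes and 1 in the interaction. A block with the knockout total numbers crossed, chosen after seeing the data, called 0 members in total RNA.

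The core minus regulatory particle difference kept its sign under every alternative in 3 comparisons: control granule (-0.40, and -0.53 with GC removal or -0.52 with block and GC removal), total RNA (-0.14, and -0.46 or -0.49, -0.28 with the chaperones counted in the regulatory particle, -0.23 as a mean) and granules between genotypes (0.08, and 0.18 or 0.19, 0.16 as a mean, 0.029 with length removal). Leaving out 1 library gave -0.51 to -0.076 in total RNA and 0.051 to 0.12 in granules between genotypes. In knockout granule it was -0.02, 0.065 with the chaperones counted in the regulatory particle, and -0.08 to 0.04 when leaving out 1 library. The interaction's 0.18 became 0.51 with GC removal, 0.59 with block and GC removal, 0.51 with the chaperones, 0.39 as a mean and -0.13 with length removal, and 0.10 to 0.30 when leaving out 1 library.

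The 10 single-gene calls kept their direction under every alternative, and each held in 8 to 15 of its 18 or 19 alternatives.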
